A study of Mus musculus with 27 samples.

Results

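Colon scrapings rich in Hoxb13 RNA were compared with scrapings poor in it, over all genes. RNA from scraped colonic epithelium of 27 male C57BL/6 mice, aged 28 days at the start and 56 days at the end, had been sequenced, with 3 mice in each of 9 groups. The mice had been gavaged 7 times at intervals of 4 days, either with sesame oil (the vehicle) or with TCDD, the dioxin best known as a ligand of the aryl hydrocarbon receptor, at 8 doses between 0.01 and 30 μg/kg. Each library came from 1 mouse. The labels give no position along the colon.

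The libraries were chosen by their measured Hoxb13. The 15 libraries of the vehicle group and of the doses up to 0.3 μg/kg were ranked by Hoxb13 in counts per 1000000 gene counts (CPM), and the 5 highest were called distal-like and the 5 lowest proximal-like, 10 of the 27 libraries in all. The names distal-like and proximal-like rest on Hoxb13 alone. The proximal-like set held no vehicle-treated mouse: it had 2 mice at 0.01, 2 at 0.1 and 1 at 0.3 μg/kg, and the distal-like set had 1 vehicle-treated mouse, 2 at 0.03, 1 at 0.1 and 1 at 0.3 μg/kg. Only 0.1 and 0.3 μg/kg were in both sets, so for the other doses dose and set cannot be told apart. The other 12 libraries, at 1, 3, 10 and 30 μg/kg, took no part in the ranking and served for the test.

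The colon is patterned from its start near the caecum to the rectum. Posterior Hox genes, which encode transcription factors that set position along the body, stay on in the adult gut, and Hoxb13 is known from the hindgut end. The proximal colon is known for take-up of remaining bile acids and nutrients, and the distal colon for recovery of sodium and water under the mineralocorticoid hormone aldosterone. In a scraping, fewer cells of a type and less RNA per cell cannot be told apart.

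In falling order of the ranking, Hoxb13 in the distal-like libraries was 132 CPM in mouse 35, 121 CPM in mouse 18, 107 CPM in mouse 2, 86.6 CPM in mouse 28 and 75.8 CPM in mouse 19. In the proximal-like libraries it was 32.4 CPM in mouse 27, 28.2 CPM in mouse 9, 27 CPM in mouse 33, 11.4 CPM in mouse 11 and 5.74 CPM in mouse 25. The libraries just outside the sets were mouse 14 at 53.8 CPM and mouse 20 at 33.6 CPM, so the lower limit fell between near-equal values. The 12 libraries at the higher doses ran from 16.0 CPM, in mouse 58, through a median of 50.7 CPM to 159 CPM, in mouse 57. Counts on genes totalled 10312378 to 14371035 per distal-like library and 9759841 to 11888112 per proximal-like library.

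**Figure D1:**
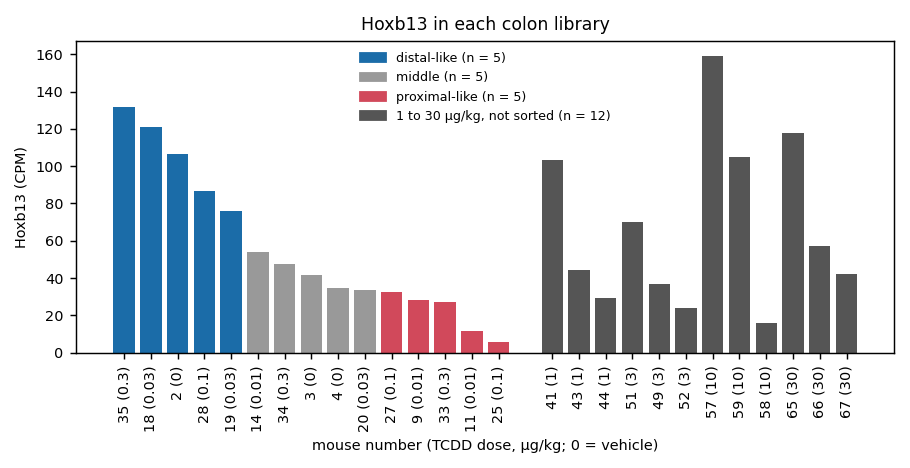
Hoxb13 in CPM for each of the 27 libraries, with the mouse number and its dose in μg/kg on the x axis. The 15 ranked libraries fall from 132 to 5.74 CPM with no wide gap at the lower limit, and the 12 libraries at 1 to 30 μg/kg span 16.0 to 159 CPM.

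Of the 39 Hox genes in the tables, 24 were tested and 17 were called, 9 higher and 8 lower in distal-like libraries. They are given only to describe the sort. Beside Hoxb13, the higher ones were Hoxd13, at a log2 fold change of 5.08, and 7 genes of the HoxA cluster, and the lower ones were Hoxd4 and 7 genes of the HoxB cluster. All 86 genes in or overlapping the 4 Hox clusters were left out of every count that follows.

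Among 14749 other genes tested, 268 (1.82%) were called higher and 234 (1.59%) lower in distal-like libraries, where a call needed a fold change of 1.5 or more and an adjusted p under 0.05. Since Hoxb13 of these same libraries chose them, this is a description, and no p is given for it. The 5 and 5 libraries did not overlap for 231 of the higher and 168 of the lower genes, against 6.93% of all genes tested. The median log2 fold change over all genes was -0.01. With dose group as a factor the count fell from 502 to 21 genes, 19 higher and 2 lower. All 268 and all 234 genes kept their direction, but in the same libraries that gave the calls, so this is no separate test.

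The independent test asked whether the same genes moved with Hoxb13 in the 12 libraries at 1 to 30 μg/kg, with dose as a factor. The slope is the log2 change of a gene per doubling of Hoxb13 CPM, and its p is from edgeR's quasi-likelihood test, adjusted over all genes. Of 15764 genes tested, 192 (1.22%) had a positive and 98 (0.622%) a negative slope at an adjusted p under 0.05. Of the 265 genes called higher in the sort and tested here, 248 (93.6%) had a positive slope and 123 (46.4%) were called. Of the 234 called lower, 221 (94.4%) had a negative slope and 56 (23.9%) were called. No gene called in one direction in the sort was called in the other here. Among the 14207 genes not called in the sort, 59.5% had the same direction in both.

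Mouse 58, which had the least Hoxb13 of the 12, decided much of this count. Without it 28 positive and 8 negative slopes were called, 36 in place of 290. Without mouse 57, which had the most, 163 were called. The directions moved less: without mouse 58, 241 of 266 genes called higher (90.6%) and 216 of 234 called lower (92.3%) kept the sign. No sample label gives an index set, so the sets used here were inferred, and they follow the order of dose. The 15 ranked libraries all shared an inferred set, and 11 of the 12 fell in the other. These sets therefore cannot be told apart from dose range, and they are not an observed batch.

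**Figure D2:**
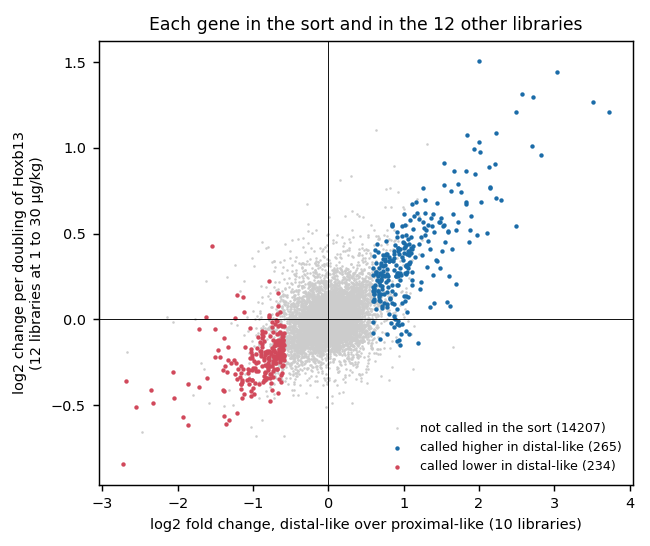
Each point is a gene tested in both fits, with the log2 fold change of distal-like over proximal-like libraries on the x axis and the log2 change per doubling of Hoxb13 in the 12 other libraries on the y axis. Of the 265 genes called higher, 248 lie above 0, and of the 234 called lower, 221 lie below 0.

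The genes with the largest rise and with levels of at least 5 CPM and no overlap between the sets were Fut9, AI854703, Slc37a2, Atp12a, Tgm3, Ly6g, B3gnt7, Sval1, Rims4, Pla2g4f, Cyp2f2 and B3gnt5, from 7.08-fold to 3.64-fold higher in distal-like libraries. In the 12 other libraries all 12 of them had positive slopes, from 0.45 to 1.32 log2 units per doubling of Hoxb13, and all 12 were called. Without mouse 58 all 12 slopes stayed positive and 6 were called, and the slope of Slc37a2 was 0.87 in place of 1.32. The call of Slc37a2 was also lost without mouse 41 or 57, and that of Pla2g4f without mouse 41. With the mean levels of the stroma and B cell lists as terms all 12 stayed positive, at 0.22 (B3gnt5) to 1.48, and Tgm3, Sval1, Rims4 and Cyp2f2 were called while the other 8 were not.

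**Figure D3:**
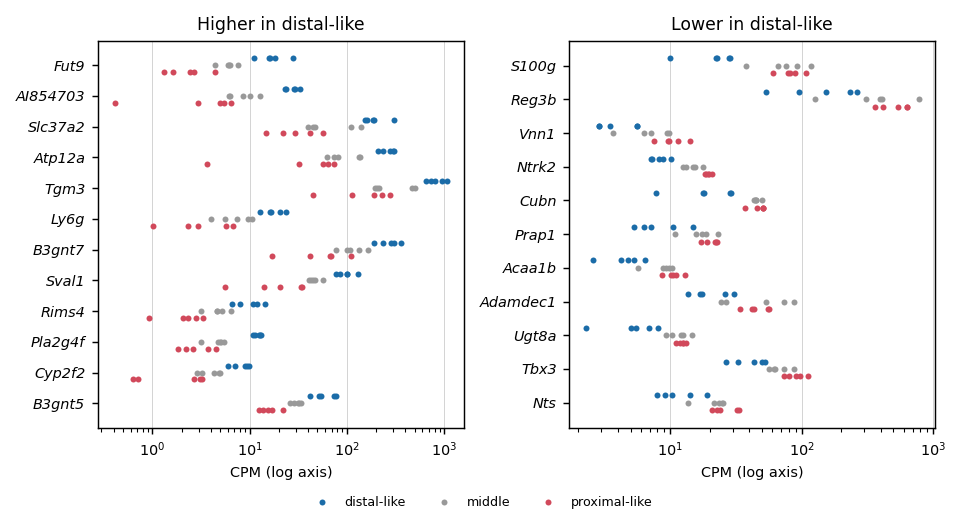
CPM on a log axis for the 12 named genes that rose most and 11 of the 12 that fell most, 1 point per library, in the distal-like, middle and proximal-like libraries (5 each). The distal-like and proximal-like points of each gene do not overlap, which the choice of genes required.

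Fut9 (chromosome 4, 25609332 to 25800244, GRCm38) encodes a fucosyltransferase that makes the Lewis X sugar. In falling order of Hoxb13, it was at 18.5, 28.1, 15.9, 16.2 and 11.2 CPM in distal-like libraries and at 4.40, 1.31, 2.44, 2.69 and 1.64 CPM in proximal-like libraries. The 12 other libraries ran from 0.676 through a median of 3.70 to 9.39 CPM, with a slope of 0.96 ± 0.15 (SE, adjusted p = 0.00465). B3gnt7 and B3gnt5 encode N-acetylglucosaminyltransferases that extend sugar chains. B3gnt7 was at 277 ± 66.8 CPM in distal-like and 61.2 ± 34.9 CPM in proximal-like libraries (SD, n = 5 each), and its slope was 0.77 ± 0.11 (SE, adjusted p = 0.00239). Slc37a2, a sugar-phosphate exchanger, stood at 199 ± 60.0 against 33 ± 16.5 CPM (SD, n = 5 each).

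Atp12a (chromosome 14, 56365068 to 56388550) encodes the colonic proton and potassium pump. It was at 306, 280.0, 298, 234 and 211 CPM in distal-like libraries and at 74.3, 64.6, 56.9, 32.5 and 3.69 CPM in proximal-like libraries. The lowest value was that of mouse 25, which also had the least Hoxb13. In the 12 other libraries it ran from 2.62 to 262 CPM and its slope was 1.21 ± 0.26 (SE, adjusted p = 0.0295), a call lost without mouse 41, 51, 57 or 58. Without mouse 58 the slope itself was 0.69. Tgm3, a transglutaminase, which cross-links proteins, was at 853 ± 169.6 against 172 ± 92.7 CPM (SD, n = 5 each), with a slope of 0.69 ± 0.07 (SE, adjusted p = 0.000196). Sval1 had a slope of 0.76 ± 0.04 (SE, adjusted p = 1.24e-06), and kept its call without mouse 58 at a slope of 0.77. Ly6g and Sval1 belong to families with near-identical copies whose reads the authors' counting sets aside, so their levels are uncertain.

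Promoter windows of RefSeq on GRCm38.p6, from 250 bases before to 50 bases after a gene's start, were matched by symbol for 10420 of the tested genes. After the called genes were known, 10 letter strings were searched on both strands, 9 of them distinct since CAATAAA and TTTATTG are each other's reverse complement. CCAATAAA, a sequence HOXB13 is known to bind, was in 0.988% of all windows, in 4 of 188 windows of genes called higher (2.13%) and in 0 of 168 of genes called lower. The 4 genes were Eno3, Kcnq1ot1, Ly6g and Tnip3. The other strings, given for all genes, for genes called higher and for genes called lower, were TTTACGAG (0.125%, 0% and 0.595%), CAATAAA, which CCAATAAA contains (3.23%, 5.32% and 5.95%), TTTATGG (2.14%, 3.72% and 2.38%), CAAAGTCCA (0.537%, 2.13% and 2.38%), CAAAGT, which CAAAGTCCA contains (14%, 16.5% and 22.6%), GTAAAC (7.84%, 5.32% and 5.36%), TGTTTAC, which holds GTAAAC on its other strand (3.29%, 4.26% and 2.38%) and TGTTTGC (4.51%, 5.32% and 4.17%). No test was made of these shares.

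The windows of Ly6g, the one gene of the 4 among the 12 with the largest rise, and of Tnip3, where the string lies 31 bases before the start, are shown to place the string, with CCAATAAA in capitals. The first is chr15:75155011-75155310, plus strand, and the second chr6:65590148-65590447, plus strand.
Ly6g: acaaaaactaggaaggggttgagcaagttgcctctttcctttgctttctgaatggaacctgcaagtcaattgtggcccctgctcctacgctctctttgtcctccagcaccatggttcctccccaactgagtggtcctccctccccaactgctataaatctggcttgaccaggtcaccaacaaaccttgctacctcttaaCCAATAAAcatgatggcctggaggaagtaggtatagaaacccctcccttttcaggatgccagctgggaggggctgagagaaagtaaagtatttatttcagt
Tnip3: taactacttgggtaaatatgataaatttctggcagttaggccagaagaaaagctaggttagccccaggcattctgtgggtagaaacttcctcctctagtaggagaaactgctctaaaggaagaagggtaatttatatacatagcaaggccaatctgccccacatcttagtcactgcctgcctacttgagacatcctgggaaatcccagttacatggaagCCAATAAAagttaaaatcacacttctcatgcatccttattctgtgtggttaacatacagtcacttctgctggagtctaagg
Ly6g was at 18.1 ± 4.15 against 3.76 ± 2.39 CPM and Tnip3, which was named for its promoter after its values were seen and which overlapped between the sets, at 30.9 ± 12.6 against 13.7 ± 4.99 CPM (SD, n = 5 each).

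Among the 12 genes with the largest fall in distal-like libraries, from 3.79-fold to 2.23-fold lower, were S100g, Reg3b, Vnn1, Ntrk2, Cubn, Prap1, Acaa1b, Adamdec1, Ugt8a, Tbx3 and Nts. All 12 had negative slopes in the 12 other libraries, from -0.57 to -0.24, and S100g and Tbx3 were called. Without mouse 58 all 12 slopes stayed negative and 0 were called by edgeR, and the slopes of S100g, Reg3b, Ntrk2 and Nts were nearer to 0, at -0.36, -0.16, -0.07 and -0.20. Others, among them Vnn1 and Cubn, were farther from 0, at -0.45 and -0.40 in place of -0.30 and -0.32. With the mean levels of the stroma and B cell lists as terms 10 of the 12 slopes stayed negative. Those of Reg3b and Vnn1 were then positive, at 0.26 and 0.10, and S100g and Tbx3 lost the call.

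S100g (chromosome X, 162961992 to 162964599) encodes calbindin-D9k, which carries calcium through the epithelial cell. It was at 22.4, 9.97, 22.8, 28.1 and 28.4 CPM in distal-like libraries and at 60.3, 108, 81.7, 88.8 and 78.5 CPM in proximal-like libraries. Its slope was -0.57 ± 0.12 (SE, adjusted p = 0.0262), a call lost without mouse 44, 51, 57, 58 or 59. Tbx3, a T-box transcription factor, was at 41.2 ± 11.2 against 90.7 ± 14.8 CPM (SD, n = 5 each), with a slope of -0.27 ± 0.05 (SE, adjusted p = 0.0209), a call lost without mouse 51 or 58. Ntrk2, a neurotrophin receptor, had little spread within the sets, at 8.31 ± 1.26 against 19.4 ± 0.887 CPM, and a slope of -0.24 ± 0.07 (SE, adjusted p = 0.111). Reg3b, an antibacterial lectin, has a related gene, Reg3g, and reads that fit both would be set aside, so its level is less certain. It was at 160.0 ± 88.8 against 519 ± 125 CPM, with a slope of -0.39 ± 0.26 (SE, adjusted p = 0.683).

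For every list that follows, the shares over all genes were 1.82% called higher and 1.59% lower in the sort. For the slopes they were 1.22% called positive and 0.622% negative. Of 28 ion and water transport genes tested, 5 were called higher (Scnn1g, Atp12a, Slc26a3, Car4 and Aqp4) and 3 lower (Car1, Car12 and Guca2b), at a median log2 fold change of 0.13. In the 12 other libraries 3 had a called positive slope (Scnn1a, Atp12a and Aqp8) and 2 a called negative slope (Car1 and Car12). Scnn1g, a subunit of the aldosterone-regulated sodium channel, was at 3.15, 4.42, 2.88, 6.79 and 5.29 CPM in distal-like libraries and at 0.978, 0.654, 1.01, 0.629 and 0.615 CPM in proximal-like libraries. Each proximal-like value rests on 6 to 12 reads, and the slope was 0.55 ± 0.20 (SE, adjusted p = 0.278) and 0.20 without mouse 58. Of the channel's other subunits, Scnn1a had a log2 fold change of 0.57 ± 0.12 and a slope of 0.14 ± 0.03 (SE, adjusted p = 0.0375), and Scnn1b a log2 fold change of -0.05 ± 0.15 (SE). These differences between subunits were not tested.

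Other transporters went with the sodium channel subunit in the sort. Slc26a3, the chloride and bicarbonate exchanger, was at 1029.5 ± 129 against 522 ± 123 CPM and Aqp4, a water channel, at 696 ± 91.3 against 337 ± 74.6 CPM (SD, n = 5 each). Their slopes in the 12 other libraries, 0.27 for Slc26a3 and 0.31 for Aqp4, were not called by edgeR. They were 0.17 without mouse 58 for Slc26a3 and 0.17 without mouse 65 for Aqp4. Car1, a cytosolic carbonic anhydrase, was lower, at 3303 ± 884 against 5368 ± 721 CPM, with a slope of -0.29 ± 0.07 (SE, adjusted p = 0.043) that was -0.19 without mouse 58. Fxyd4, a regulator of the sodium and potassium pump, was named after its values were seen. It was at 5.94, 11.9, 10.6, 8.82 and 7.72 CPM in distal-like libraries and at 1.17, 1.03, 1.43, 0.0898 and 0 CPM in proximal-like libraries, and its slope was 1.27 ± 0.38 (SE, adjusted p = 0.147) and 0.69 without mouse 41.

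Of 8 bile acid genes tested, 0 were higher and 2 were called lower, Slc10a2 and Slc51a, at a median log2 fold change of -0.43, and the called slopes were those of Slc10a2 and Nr1h4, both negative. Slc10a2, which brings bile acids into the cell, was at 40.0, 24.9, 49, 73.4 and 68.0 CPM in distal-like libraries and at 92.2, 72.6, 69.3, 104 and 92.8 CPM in proximal-like libraries. The sets overlapped, since mouse 28 was above mice 9 and 33. In the 12 other libraries its slope was -0.48 ± 0.06 (SE, adjusted p = 0.00114). Slc51a, a subunit of the exit transporter, was at 27.5 ± 11.1 against 57 ± 6.33 CPM, with a slope of -0.29 ± 0.07 (SE, adjusted p = 0.0554). Of 11 vitamin uptake genes, Cubn and Amn, which together form the receptor for vitamin B12 bound to intrinsic factor, were called lower and the folate transporter Slc46a1 higher, at a median log2 fold change of -0.12, and 0 of 12 slopes were called.

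**Figure D4:**
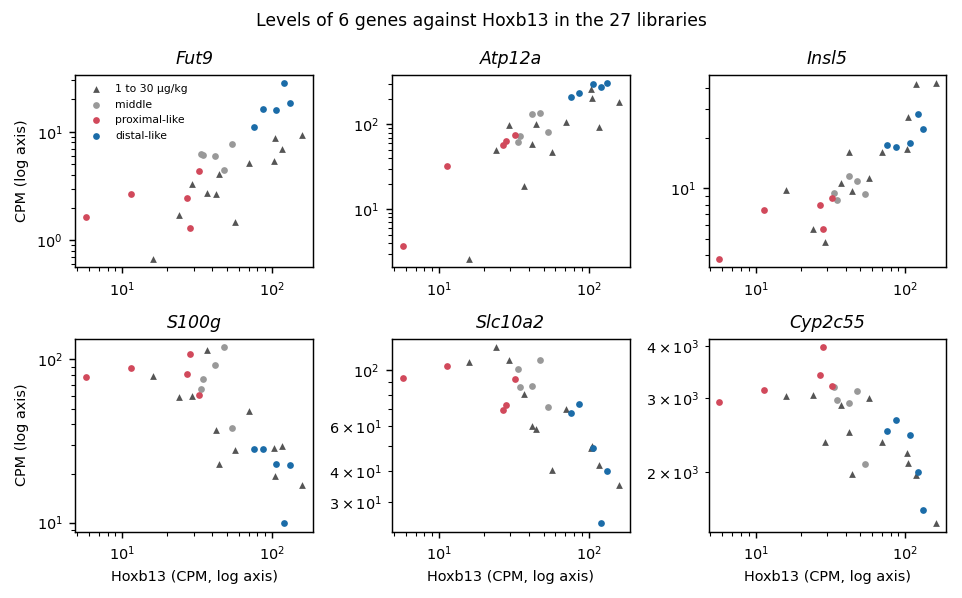
CPM of 6 genes against Hoxb13 CPM, both on log axes, in the 27 libraries: circles are the 15 ranked libraries and triangles the 12 at 1 to 30 μg/kg. Fut9, Atp12a and Insl5 are higher and S100g, Slc10a2 and Cyp2c55 lower where Hoxb13 is high, with mouse 58 (16.0 CPM of Hoxb13) as the lowest triangle for Fut9 and Atp12a.

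Enteroendocrine genes, which mark the hormone-producing cells, split. Of 13 tested, 6 were called lower (Chga, Chgb, Sst, Nts, Tph1 and Pcsk1) and 1 higher (Insl5), and the median log2 fold change was -0.64. Over all genes 1.59% were called lower and 1.82% higher. The called slopes were positive for Insl5 and negative for Chga, Chgb and Tph1. Insl5, a hormone of colonic L cells, was at 22.7, 28.1, 18.6, 17.7 and 18.3 CPM in distal-like libraries and at 8.70, 5.70, 7.91, 7.46 and 3.79 CPM in proximal-like libraries. Its slope was 0.75 ± 0.10 (SE, adjusted p = 0.00126), and 0.98 without mouse 58, still called. Chga, a granule protein of these cells, was at 98.8 ± 14.37 against 168 ± 9.87 CPM (SD, n = 5 each), with a slope of -0.22 ± 0.04 (SE, adjusted p = 0.00607). The further L cell hormones Gcg and Pyy were not called in either fit: Gcg had a log2 fold change of -0.47 ± 0.13 and Pyy of 0.26 ± 0.13 (SE).

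Of 20 xenobiotic genes tested, 6 were called lower (Cyp2c55, Cyp2c65, Cyp2c66, Cyp4b1, Aldh1a1 and Fmo5) and Adh1 higher, against 1.59% lower and 1.82% higher over all genes. The median log2 fold change was -0.31, and the called slopes were negative for Cyp2c55, Cyp2c65 and Cyp4b1 and positive for Adh1. Cyp2c65, a cytochrome P450, was at 132 ± 30.7 against 237 ± 23.3 CPM (SD, n = 5 each), with a slope of -0.35 ± 0.03 (SE, adjusted p = 2.53e-05). The Cyp2c genes are a family of related genes, and reads that fit more than 1 of them would be set aside, so their levels are uncertain. Adh1, an alcohol dehydrogenase, was at 261 ± 49.98 against 107 ± 20.8 CPM, with a slope of 0.57 ± 0.03 (SE, adjusted p = 1.24e-06) that was 0.60 without mouse 58. Of 15 lipid genes, 3 were called lower, among them Angptl4 and Scd1, and 0 higher, at a median log2 fold change of -0.40. Scd1, a fatty acid desaturase, was at 64.6 ± 24.95 against 179 ± 142 CPM (SD, n = 5 each), and the sets overlapped. The adipocyte markers Adipoq and Fabp4 were also called lower, at sums of the adipose and mesothelium list of 1.88 to 12.5 CPM in distal-like and 6.05 to 67.4 CPM in proximal-like libraries, and Scd1 and Fabp4 lost the call on leaving out any 1 of the same 6 libraries. Over all alternative runs the log2 fold change went from -3.10 to -0.30 for Adipoq and from -3.02 to -0.23 for Fabp4. For Scd1 it went from -1.76 to -0.13. The part of adipose tissue in the lipid genes was not tested. The called slopes of the lipid list included Ppara, negative, and Plin2, positive.

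Of 20 transcription factors of intestinal identity, Foxa2 was called higher and Isx, Tbx3 and Osr2 lower, at a median log2 fold change of -0.09, and the same 4 were the called slopes, in the same directions. Foxa2, a forkhead factor, was at 27.5 ± 4.40 against 17.1 ± 2.74 CPM, with a slope of 0.30 ± 0.04 (SE, adjusted p = 0.00271). Osr2, a zinc finger factor, was at 40.5 ± 18.1 against 88.6 ± 11.6 CPM, with a slope of -0.46 ± 0.05 (SE, adjusted p = 0.000609). Cdx2, which specifies the intestine, had a log2 fold change of -0.33 ± 0.08 (SE) and was not called.

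Host defence genes went both ways, with 4 of 16 called higher (Mptx1, Saa1, Saa2 and Wfdc2) and 3 lower (Reg3b, Reg3g and Saa3), at a median log2 fold change of 0.13, and positive slopes called for Saa2 and Wfdc2. Wfdc2, a secreted protease inhibitor, was at 52.7 ± 9.38 against 24.8 ± 2.42 CPM, with a slope of 0.30 ± 0.04 (SE, adjusted p = 0.00226). Saa1 and Saa2 are near-identical and uncertain. Of 15 goblet cell genes, Clca1 and Muc1 were called higher, at a median log2 fold change of 0.14, and 0 slopes were called, and Muc2, the main mucin, had a log2 fold change of -0.27 ± 0.11 (SE) and was not called. Of 14 mucin glycosylation genes, B3gnt7 was called higher and B4galnt2 lower, at a median log2 fold change of 0.23, and slopes were called for B3gnt7 and Fut4, positive, and B4galnt2 and Gcnt3, negative. Of 15 brush border genes, 3 were higher, at a median log2 fold change of -0.52, while in the 12 other libraries 12 of 17 slopes were positive, at a median of 0.14. The 1 gene called was Slc15a1, the peptide transporter, which was higher, at 114 ± 13.7 against 39.9 ± 16.7 CPM, with a slope of 0.57 ± 0.09 (SE, adjusted p = 0.00601) that was 0.37 without mouse 58. Of 12 crypt stem cell genes, Cd44 was called lower, at a median log2 fold change of -0.10, and 0 of 12 cell cycle and 0 of 10 tuft cell genes were called.

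Among all the list members named here with a called slope outside the 24 genes of largest change, only Insl5, Cyp2c65 and Adh1 kept the call without mouse 58, and of these 3 only Adh1 kept it with the stroma and B cell scores as terms. The called slopes of Car12, Scnn1a, Ighm, Car1, Cyp2c55, B4galnt2, Isx and Saa2 were each lost without any 1 of 5 to 9 of the 12 libraries, and those of Chgb, Fut4, Plin2, H2-Aa and Nr1h4 without any 1 of 2 to 4. In the sort, Slc10a2, Clca1, Mptx1, Saa3, Car4, Scd1, Fabp4, Adipoq and Sst each lost the call without any 1 of 5 to 7 of the 10 libraries, Aldh1a1, Cyp2c55, Tnip3, Reg3g, Car12 and Cd44 without any 1 of 2 to 4, and B4galnt2 and Saa2 without mouse 18.

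**Figure D5:**
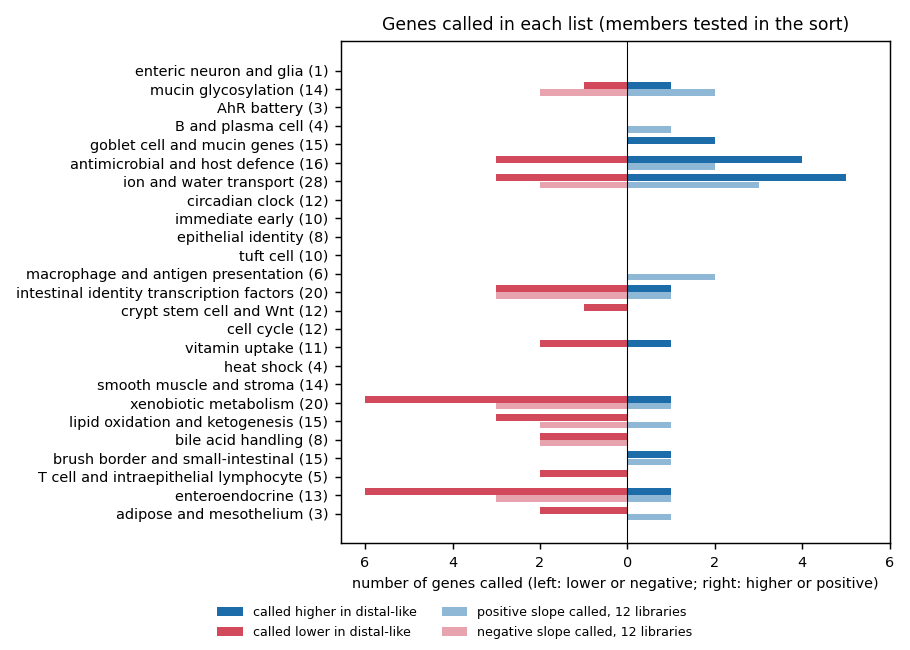
Genes called in each list, with the number tested in the sort in brackets, to the right where higher or positive and to the left where lower or negative, in the sort (dark) and in the 12 other libraries (pale). The xenobiotic and enteroendocrine lists have 6 genes called lower each, and the ion transport list 5 called higher and 3 lower.

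Markers of other cell types moved with the sort in part. Epithelial identity genes had 0 of 8 called, and Epcam was at 949 ± 36.4 and 949.7 ± 46.7 CPM. Of 3 adipose and mesothelium genes tested, Adipoq and Fabp4 were called lower, with the sums given beside the lipid genes. In the 12 other libraries 2 of the 5 slopes of that list were positive. Msln, a mesothelium marker of that list, had its 1 called slope, with the opposite sign to Adipoq and Fabp4, at 0.75 ± 0.16 (SE, adjusted p = 0.033). Msln was at 0.195 to 1.42 CPM there, and the call was lost without any 1 of 10 of the 12 libraries. Gzma and Gzmb, of cytotoxic lymphocytes, were called lower of 5 tested, and that list summed to 7.23 to 12.1 CPM against 13.7 to 25.5 CPM. In the 12 other libraries 2 of its 5 slopes were positive and 0 were called, and the slope of Gzma was -0.05. The 14 smooth muscle and stroma genes had 0 called, and summed to 186 to 351 CPM against 145 to 478 CPM, while in the 12 other libraries all 14 had positive slopes with 0 called by edgeR. B cell and macrophage genes had 0 called in the sort, and positive slopes were called for Ighm and for H2-Aa and H2-Ab1. The 9 genes of the squamous list, which marks the anal canal, summed to 0.582 to 1.11 CPM in distal-like and 0.307 to 1.12 CPM in proximal-like libraries, with 0 members tested and Krt5 and Sprr3 at 0 in all 10. With the mean levels of the stroma and B cell lists as terms, the sort called 148 genes higher and 87 lower. All 268 and 234 genes kept their direction, again in the libraries that gave the calls, so this is no separate test. The slopes called fell to 15, all positive. The part of these cell types in the results was otherwise not tested.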

How the data were processed

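The authors deposited unnormalized read counts, 1 table a mouse, in 46078 gene rows. Per the submitters' processing notes the tools named were FastQC 0.11.3, Trimmomatic 0.33, TopHat2 2.1.0, SAMtools 1.2.0, HTSeq 0.6.1 and DESeq, on GRCm38. The annotation release and the use of strand are not given in the sources used here. Lines naming no gene were left out: reads with no feature were 29.1 to 33.3% and reads with more than 1 alignment 30.7 to 37.1% of a table.

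CPM is counts per 1000000 gene counts. Fits used edgeR 4.0.16 in R 4.3.3 with TMM factors and filterByExpr (minimum count 10). The sort was fitted on 10 libraries with 8 residual degrees of freedom. The slope on log2 Hoxb13 CPM (prior count 0.5), with dose as a factor, was fitted on 12 libraries with 7. Benjamini-Hochberg adjustment was over all genes tested. The steps were tested on simulated counts. Coordinates are those of GENCODE M21. The libraries are separate mice, and counting intervals were not needed since errors are between mice.

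The members, lists and tests were chosen with earlier results of these data known. Named were the 12 genes that rose most and the 12 that fell most among those called in the sort, at a mean of at least 5 CPM and without overlap, with a symbol that is no clone name, plus members of the lists. Some genes that this rule names are not reported here. Alternatives were RLE factors, DESeq2 1.42.0, limma 3.58.1 voom, no filter, dose terms, all 15 libraries and another ranking. Others were the inferred index set, prior count and each library left out.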

Additional observations from a re-analysis of the deposited data

Results flagged for a closer look

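Within the sets of 5 libraries, 184 groups of values of named genes and list members were examined for a library far from the rest (Dixon's test, critical value 0.71), and 3 were found, where chance alone flags about 5% of groups. Slc37a2 was at 303 CPM in mouse 18, against at most 193 CPM in the other distal-like libraries. Gcg was at 42.5 CPM in mouse 19, against at most 31.6 CPM in the other distal-like libraries. Foxa2 was at 12.4 CPM in mouse 9, against at least 17.5 CPM in the other proximal-like libraries.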

How the results depend on the processing

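No called value of a named gene changed sign under any alternative run. Of values without a call, 55 did, in 18 genes, among them the slopes of Reg3b (0.26) and Vnn1 (0.10) with the stroma and B cell scores as terms. The 502 genes of the sort stayed within 1.5 times under RLE factors, DESeq2, limma voom, no filter, 15 libraries and another ranking. They became 21 with dose as a factor, where only 2 doses are in both sets, 1051 on adjusted p alone, and 235 with the stroma and B cell scores, a choice made after the data were seen. Leaving out each library gave 340 to 597. A slope over all 15 libraries called 429 genes once scaled by the difference of 2.55 in mean log2 Hoxb13 between the sets, a scaling chosen after the count without it, 75, had been seen (926 on adjusted p alone). The 290 slopes in the 12 libraries became 450 by DESeq2, 501 without a filter and 15 with the scores, with 5 residual degrees of freedom. Leaving out each library gave 36 to 360. The lowest was without mouse 58. A test of whether slopes differed between the 15 and the 12 libraries, also added after the data were seen, called 0 of 16460 genes by edgeR (873 at an unadjusted p under 0.05, smallest adjusted p 0.279), which does not show that they were alike. No paired analysis was possible because the labels number every mouse once, so no number recurs across groups.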
